A study of Danio rerio with 6 samples.

Results

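The genes described here are those that set the Low-Fli1+ population apart from both other populations of Tg(fli1:EGFP) zebrafish cells, a transgenic line whose EGFP, a green fluorescent protein, is made under the regulatory sequence of fli1a. A gene was taken when both Low-Fli1+ libraries lay above all 4 other libraries, or both lay below all 4, and its mean over the 6 libraries was at least 0.5 FPKM (fragments scaled to transcript length and to the mapped fragments of the library). By this rule 3272 of the 19237 genes above that floor were taken, 1655 above and 1617 below. The members were thus chosen by their FPKM in all 6 libraries, so the levels of these genes in Low-Fli1+ are given as a description, with no test. The rule did not use the order of High-Fli1+ and Fli1- between themselves, and this comparison is tested. Its values and spread still include libraries by which the members were chosen, so p-values among members are not free of the rule.

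All 6 libraries carry the genotype Tg(fli1:EGFP), and the labels name 3 cell populations with 2 libraries each, Fli1-, Low-Fli1+ and High-Fli1+. The labels give no stage, treatment, sorting method or number of embryos. They do not say that the libraries of a population come from separate embryos or separate sorts, so the spread between them may be technical. By its title the study concerned angiogenesis and the genes LMO2 and PRDM16. Each library was made from poly-A enriched RNA, starting from 100 ng. The values are FPKM, which are scaled to transcript length, and the number of fragments behind each value is unknown. In bulk RNA, more cells of a type and more RNA per cell cannot be told apart.

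The ETS factor fli1 acts early in the lineage that gives rise to both vessels and blood, and its reporter in zebrafish is known to light up endothelium, some blood cells and cells of the pharyngeal arches. Neutrophils and macrophages are the first white blood cells of the embryo; both develop under the transcription factor PU.1 (spi1b), migrate by remodelling their actin skeleton, and carry enzymes in granules or lysosomes. Neutrophils are known for myeloperoxidase and matrix proteases, and macrophages for the CSF1 receptor and lysosomal cathepsins.

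The reporter's own gene, fli1a, was not among these genes. It stood at 66.8 and 52.0 FPKM in the Low-Fli1+ pair, 1.04 and 5.55 in the Fli1- pair and 241 and 192 in the High-Fli1+ pair, so both Low-Fli1+ libraries lay between the other populations. Its paralog fli1b, lmo2 and PRDM16 also missed the rule.

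Low-Fli1+ held fewer such genes than either other population. The share of tested genes above both others was 8.60% in Low-Fli1+, against 21.1% in Fli1- and 10.6% in High-Fli1+, and the share below both others was 8.41%, against 11.0% and 21.7%. Most of the distances were small. Measured as the gap between the nearest libraries on the log2(FPKM + 1) scale, the median was 0.30 for genes above and 0.46 for genes below, and 73.0% and 58.9% of them had a gap under 1.5-fold. A gap of at least 1.5-fold left 447 genes above, 2.32% of those tested, and 664 below, 3.45%. Among genes above, 202 had a gap of at least 2-fold and 36 of at least 4-fold. Among genes below, 349 and 79 passed those sizes.

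The 2 directions differed in mean level. That mean includes the Low-Fli1+ libraries, so being highest there raises it and being lowest there lowers it. Part of the difference is thus set by the rule. Genes above had a median mean level of 9.42 FPKM, genes below 3.83 FPKM, and all tested genes 7.48 FPKM. In Low-Fli1+ the share of genes below both others was 13.3% at mean levels of 0.5 to 2 FPKM, 9.94% and 5.63% in the next ranges, and 4.77% at 32 FPKM and over. In High-Fli1+ the same share went from 4.86% to 30.7%, and in Fli1- from 2.18% to 17.5%. The share of genes above both others in Low-Fli1+ was 3.65% at the lowest levels and between 8.08% and 10.7% at the others.

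**Figure D1:**
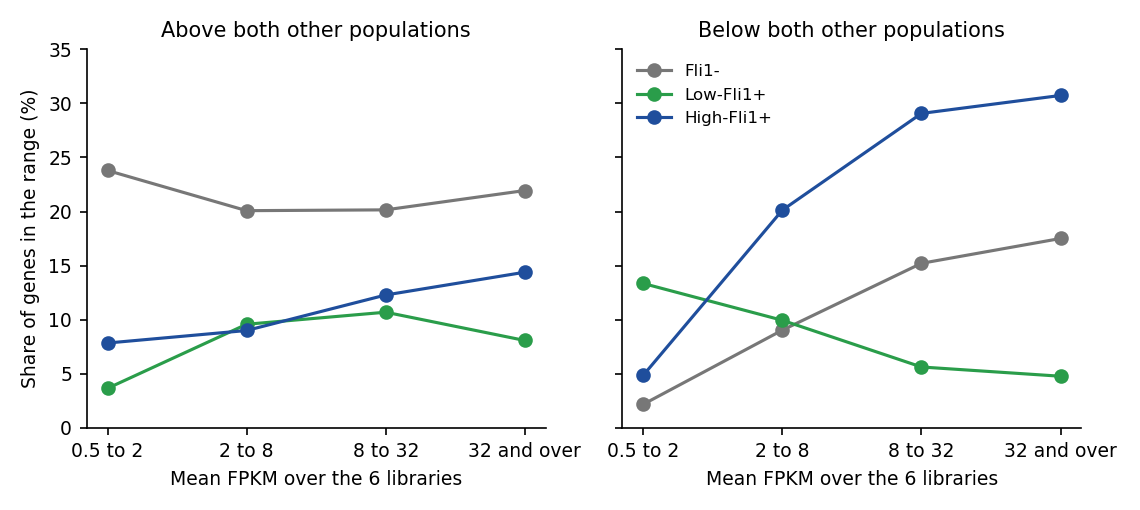
Share of genes, in percent, that lay above (left) or below (right) both other populations without overlap, for each population, against the mean FPKM of the gene over the 6 libraries. In Low-Fli1+ the share of genes below both others is highest, at 13.3%, in the range of lowest mean level and is 4.77% at 32 FPKM and over, while in the other populations it is lowest at low levels.

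The Low-Fli1+ libraries also differed from the others as libraries. They listed 4477 and 3141 of the tested genes at 0, against 940 and 855 in Fli1- and 2307 and 2579 in High-Fli1+. Across genes, Pearson's r of log2(FPKM + 1) was 0.737 between the Low-Fli1+ libraries, 0.927 between the Fli1- and 0.892 between the High-Fli1+ libraries. Low-Fli1+ replicate 2 was as close to Fli1- replicate 2 (r = 0.752) and to the High-Fli1+ libraries (0.747 and 0.748) as to its own pair. Of the genes below, 630 (39.0%) were listed at 0 in both Low-Fli1+ libraries and a further 275 in replicate 1 alone and 80 in replicate 2 alone. The part of these zeros in the counts of genes below was not tested. Under median-ratio scaling, which moved the median difference of all tested genes between Low-Fli1+ and the others from 0.04 to -0.12 on the log2 scale, the split became 1147 above and 2162 below. Without Low-Fli1+ replicate 1 the rule took 4404 genes above and 3487 below, and without replicate 2 it took 4768 and 4366, since a single library then had to clear the 4 others.

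At the edge of the rule lay genes with almost no gap. TPP2, a peptidase, stood at 26.2 and 33.4 FPKM in the Low-Fli1+ pair, 26.2 and 23.1 in the Fli1- pair and 19.4 and 18.2 in the High-Fli1+ pair and was just inside. On the other side INPP1, an inositol phosphatase, was just inside at 4.89 and 0.456 FPKM in the Low-Fli1+ pair, 4.90 and 5.50 in the Fli1- pair and 5.24 and 5.77 in the High-Fli1+ pair. The gene utrnp was just outside, listed at 0 in 5 libraries and at 11.3 FPKM in Low-Fli1+ replicate 1, and so was znf1166, listed at 0 in both Low-Fli1+ libraries and in High-Fli1+ replicate 1.

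White blood cell lists had the 3 largest shares of genes above among the 37 lists counted. Of the 1655 genes above, 130 were in at least 1 of the 37 lists, so most are not described by them. Of 82 tested genes in the neutrophil, pan-leukocyte and macrophage lists, 49 (59.8%) lay above all 4 other libraries in Low-Fli1+, against 8.60% of all tested genes, and 0 lay below. By list these were 19 of 25 neutrophil genes (76.0%), 18 of 29 pan-leukocyte genes (62.1%) and 12 of 28 macrophage and microglia genes (42.9%). The median difference between Low-Fli1+ and the mean of the others, on the log2(FPKM + 1) scale, was 1.84, 2.09 and 1.52 in the 3 lists, against 0.04 for all tested genes. The counts were 15, 15 and 12 after quantile normalization, and 15, 17 and 11 after median-ratio scaling. Summed over the neutrophil list, the level was 981 and 1745 FPKM in Low-Fli1+ libraries, 114 and 165 in Fli1- and 280.1 and 297 in High-Fli1+.

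Granule and secreted enzymes of neutrophils led the group by level. The myeloperoxidase gene mpx, whose product makes hypochlorous acid, stood at 214 and 251 FPKM in the Low-Fli1+ pair, 0.662 and 0.828 in the Fli1- pair and 26.1 and 18.5 in the High-Fli1+ pair. For npsn, which encodes the protease nephrosin, the values were 206 and 377 FPKM in the Low-Fli1+ pair, 1.46 and 2.78 in the Fli1- pair and 43.4 and 45.4 in the High-Fli1+ pair. The gelatinase gene mmp9 stood at 125 and 193 FPKM in the Low-Fli1+ pair, 0.723 and 1.81 in the Fli1- pair and 7.20 and 14.0 in the High-Fli1+ pair. In all 3 genes the Fli1- libraries were lowest and the High-Fli1+ libraries lay between, and no population overlapped another. The chemotactic factor gene lect2l reached 32.1 and 225 FPKM in the Low-Fli1+ libraries, with replicate 1 just above High-Fli1+ replicate 1, against 0.975 and 1.37 in the Fli1- pair and 28.7 and 19.5 in the High-Fli1+ pair. The collagenase gene mmp13a was at 34.9 and 73.6 FPKM in Low-Fli1+ and at most 9.11 FPKM elsewhere. Lysozyme, lyz, was not a member, because one of its High-Fli1+ libraries, at 66.0 FPKM, exceeded Low-Fli1+ replicate 1 at 50.5 FPKM.

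Receptors and regulators of myeloid cells followed. The gene csf3r encodes the receptor for the neutrophil growth factor G-CSF and stood at 24.5 and 25.4 FPKM in the Low-Fli1+ pair, 2.47 and 0.274 in the Fli1- pair and 2.41 and 4.29 in the High-Fli1+ pair. The PU.1 gene spi1b stood at 31.8 and 50.8 FPKM in the Low-Fli1+ pair, 3.50 and 4.2 in the Fli1- pair and 9.91 and 10.3 in the High-Fli1+ pair, and its paralog spi1a at 17.6 and 25.0 FPKM in the Low-Fli1+ pair, 0.707 and 0.697 in the Fli1- pair and 3.70 and 3.31 in the High-Fli1+ pair. For cebp1, a C/EBP factor of zebrafish myeloid cells, the values were 27.1 and 30.0 FPKM in the Low-Fli1+ pair, 0.287 and 2.06 in the Fli1- pair and 5.41 and 5.54 in the High-Fli1+ pair. Each of these 4 genes had Low-Fli1+ libraries within 2-fold of each other and well clear of the rest. Genes of the oxidase that makes superoxide in phagocytes were also above, with ncf1 at 25.4 and 25.6, ncf4 at 10.3 and 6.66 and cyba at 11.2 and 15 FPKM in Low-Fli1+ libraries. The catalytic subunit cybb was not, since High-Fli1+ replicate 2, at 8.46 FPKM, lay above Low-Fli1+ replicate 1, at 6.0 FPKM. The cytokine gene il1b stood at 14.7 and 45.1 FPKM in Low-Fli1+ and at 3.22 FPKM or less in the other libraries, which did not overlap them. The leukotriene synthesis genes alox5a and lta4h were also above, with alox5a at 19 and 31.4 FPKM and lta4h at 59.9 and 108 FPKM in Low-Fli1+.

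Pan-leukocyte genes of adhesion, signalling and the actin skeleton were mostly ordered from Fli1- through High-Fli1+ to Low-Fli1+. The integrin gene itgb2, whose product pairs with leukocyte alpha chains, stood at 38.4 and 40.9 FPKM in the Low-Fli1+ pair, 0.309 and 0.867 in the Fli1- pair and 6.82 and 5.79 in the High-Fli1+ pair. The coronin gene coro1a, whose product binds actin, stood at 124 and 121 FPKM in the Low-Fli1+ pair, 3.50 and 2.78 in the Fli1- pair and 38.1 and 36.9 in the High-Fli1+ pair. In both, the libraries of each population lay close together and the populations were separate. The lipid phosphatase gene inpp5d stood at 43.6 and 19.4 FPKM in the Low-Fli1+ pair, 2.37 and 1.44 in the Fli1- pair and 6.22 and 5.23 in the High-Fli1+ pair. The kinase gene syk was at 66.5 and 72.1 FPKM in the Low-Fli1+ pair, 6.92 and 4.65 in the Fli1- pair and 25.2 and 30.7 in the High-Fli1+ pair. In these 4 genes both High-Fli1+ libraries lay above both Fli1- libraries, as in 15 of the 18 pan-leukocyte genes above. Over all tested genes that order held in 21.6%, and among all 1655 genes above in 390 (23.6%). In the neutrophil list it held in 11 of 19 genes above, with the reverse order in 0. Among pan-leukocyte genes, 11 were not members, among them ptprc (CD45) at 8.76 and 20.7 FPKM in the Low-Fli1+ pair, 1.17 and 0.940 in the Fli1- pair and 4.91 and 9.29 in the High-Fli1+ pair, where one Low-Fli1+ library lay within the range of High-Fli1+. A gap of at least 1.5-fold was met by 10 of the 18.

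Several macrophage genes were lowest in High-Fli1+. The receptor gene csf1ra, which in zebrafish is also used by yellow pigment cells, stood at 21.5 and 24.3 FPKM in the Low-Fli1+ pair, 2.33 and 3.06 in the Fli1- pair and 1.61 and 1.72 in the High-Fli1+ pair. For mpeg1.1, which encodes a pore-forming protein of macrophages, the values were 13.2 and 23.7 FPKM in the Low-Fli1+ pair, 3.26 and 3.50 in the Fli1- pair and 0.670 and 0.412 in the High-Fli1+ pair. The gene havcr1 stood at 8.44 and 15.7 FPKM in Low-Fli1+ and 2.77 and 3.24 in Fli1-, and it was listed at 0 in both High-Fli1+ libraries. In csf1ra, mpeg1.1 and havcr1 the High-Fli1+ libraries were the lowest. Among the 12 macrophage genes above, High-Fli1+ lay below Fli1- without overlap in 5 and above it in 3, while those orders held in 36.3% and 23.6% of all genes above, so the list's split is near that of the rest. The list's summed level was 313 and 439 FPKM in Low-Fli1+, 153 and 186 in Fli1- and 87.5 and 81.1 in High-Fli1+. The lipid carrier gene apoeb, also expressed outside macrophages, gave a large part of it, at 73.5 and 120.3 FPKM in the Low-Fli1+ pair, 84.0 and 108 in the Fli1- pair and 4.60 and 2.84 in the High-Fli1+ pair, and without it the sums were 239 and 319, 69.4 and 78.2, and 82.9 and 78.3 FPKM. Several defining markers were listed at 0 in Low-Fli1+ replicate 1 and present in replicate 2, namely marco (8.30 FPKM), mfap4 (6.25 FPKM), p2ry12 (4.23 FPKM) and ccl34a.4 (32.4 FPKM). Without Low-Fli1+ replicate 1 the list held 22 genes above, but the number above then rose by a larger factor over all tested genes.

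**Figure D2:**
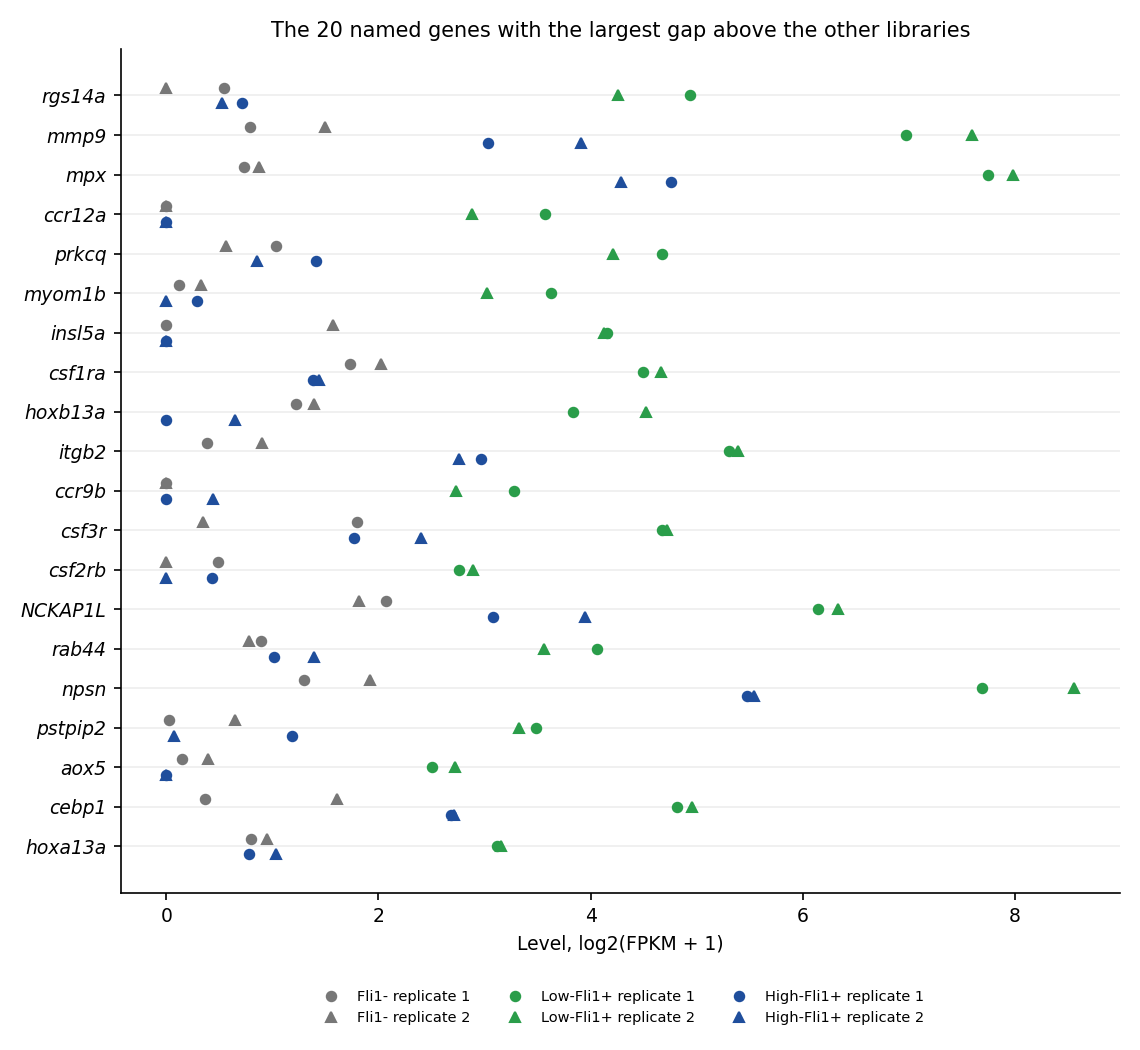
Level of the 20 named genes with the largest gap above the other libraries, as log2(FPKM + 1) on the x axis, with 1 symbol per library, coloured by population. In every gene both Low-Fli1+ libraries lie to the right of the other 4, and in mpx, mmp9, npsn and itgb2 the High-Fli1+ libraries lie between Fli1- and Low-Fli1+.

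The 20 named genes with the largest gaps above included 7 from the 3 leukocyte lists, and the lowest Low-Fli1+ library lay 4.23-fold to 11.7-fold above the highest other library on the FPKM + 1 scale. Among the families, 4 of 21 chemokine and receptor genes were above and 2 below. Of 34 interleukin and receptor genes, 6 were above and 0 below. Over all tested genes the shares were 8.60% above and 8.41% below. Both families thus had a larger share above, while the chemokine and receptor share below was near that of all tested genes. All 20 genes stayed above under quantile normalization and median-ratio scaling. The largest gap was that of rgs14a, a regulator of G protein signalling, at 29.6 and 18.2 FPKM in the Low-Fli1+ pair, 0.454 and 0 in the Fli1- pair and 0.639 and 0.437 in the High-Fli1+ pair. Receptors of chemokines or cytokines among the 20 included ccr12a at 10.8 and 6.38 FPKM in Low-Fli1+ and listed at 0 in the other 4 libraries, ccr9b at 8.71 and 5.65 FPKM and csf2rb at 5.76 and 6.43 FPKM in Low-Fli1+. The kinase gene prkcq (protein kinase C theta) stood at 24.4 and 17.5 FPKM in the Low-Fli1+ pair, 1.05 and 0.476 in the Fli1- pair and 1.66 and 0.807 in the High-Fli1+ pair. NCKAP1L, which encodes a blood cell subunit of the actin-regulating WAVE complex, stood at 69.6 and 79.8 FPKM in the Low-Fli1+ pair, 3.21 and 2.52 in the Fli1- pair and 7.43 and 14.4 in the High-Fli1+ pair. In prkcq the other 2 populations were both low and overlapped, whereas in NCKAP1L they were separate. Also among the 20 were rab44, pstpip2, the insulin-like peptide gene insl5a, the sarcomere gene myom1b and the posterior homeobox genes hoxb13a and hoxa13a. Apart from ccr12a, the genes listed at 0 in all 4 other libraries were guca1d, sema4aa and 5 with provisional names, 8 in all. The Low-Fli1+ pair was uneven in guca1d, at 0.192 and 7.8 FPKM, and in sema4aa, at 17.5 and 2.58 FPKM. Their place thus rests largely on 1 library.

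The lymphoid list had 4 of 19 genes above (21.1%), against 8.60% of all tested genes, and 0 below. The recombinase gene rag1 stood at 14.3 and 5.99 FPKM in the Low-Fli1+ pair, 1.16 and 0.931 in the Fli1- pair and 1.80 and 0.489 in the High-Fli1+ pair, and the chemokine receptor gene ccr9a at 53.3 and 30.8 FPKM in the Low-Fli1+ pair, 0.980 and 1.24 in the Fli1- pair and 18.7 and 11.3 in the High-Fli1+ pair. The cytokine receptor chain gene il2rga stood at 29.3 and 13.4 FPKM in the Low-Fli1+ pair and 4.94 and 8.52 in the High-Fli1+ pair. It was listed at 0 in both Fli1- libraries. The remaining gene above, tbx21, had a gap of 1.12-fold. Summed over the list, the level was 534 and 396 FPKM in Low-Fli1+, 295 and 288 in Fli1- and 571 and 467 in High-Fli1+. The list's total was thus not highest in Low-Fli1+. The T cell kinase gene lck was listed at 0 in Low-Fli1+ replicate 1 and at 3.09 FPKM in replicate 2, and zap70 at 0 in both.

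Actin and lysosome genes were more often above than the background. Of 59 cytoskeleton and actin genes 15 (25.4%) were above and 0 below, and of 45 lysosome genes 10 (22.2%) were above and 0 below. Profilin, pfn1, stood at 157 and 299.5 FPKM in the Low-Fli1+ pair, 19.8 and 54.2 in the Fli1- pair and 85.9 and 146 in the High-Fli1+ pair. The actin-assembly gene vaspa was at 13.5 and 10.9 FPKM in the Low-Fli1+ pair and 0.660 and 2.67 in the High-Fli1+ pair and listed at 0 in Fli1-. The Arp2/3 subunit gene actr2b stood at 67.6 and 52.1 FPKM in the Low-Fli1+ pair, 10.7 and 15 in the Fli1- pair and 13.5 and 21.4 in the High-Fli1+ pair, clear of both others. Of lysosomal enzymes, the protease genes ctsba, at 96.1 and 102 FPKM in Low-Fli1+, and tpp1, at 46.1 and 46.8 FPKM, each had both Fli1- libraries above both High-Fli1+ libraries. The glucocerebrosidase gene gba stood at 23.9 and 12.4 FPKM in the Low-Fli1+ pair, 2.83 and 6.12 in the Fli1- pair and 1.98 and 1.97 in the High-Fli1+ pair. For actin genes the count was 6 above and 2 below under median-ratio scaling, 5 above with a gap of at least 1.5-fold, and 24 without Low-Fli1+ replicate 1. Of all 19237 tested genes, 1147 were above under median-ratio scaling, and 2.32% had a gap above of at least 1.5-fold. The median difference of the actin list on the log2(FPKM + 1) scale was 0.61 from Fli1- and -0.026 from High-Fli1+. As a whole the actin list was thus level with High-Fli1+. Lysosome genes above numbered 9 under median-ratio scaling and 17 and 18 without Low-Fli1+ replicates 1 and 2. Leaving out a Low-Fli1+ library raised the number above by a larger factor over all tested genes than in these lists.

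**Figure D3:**
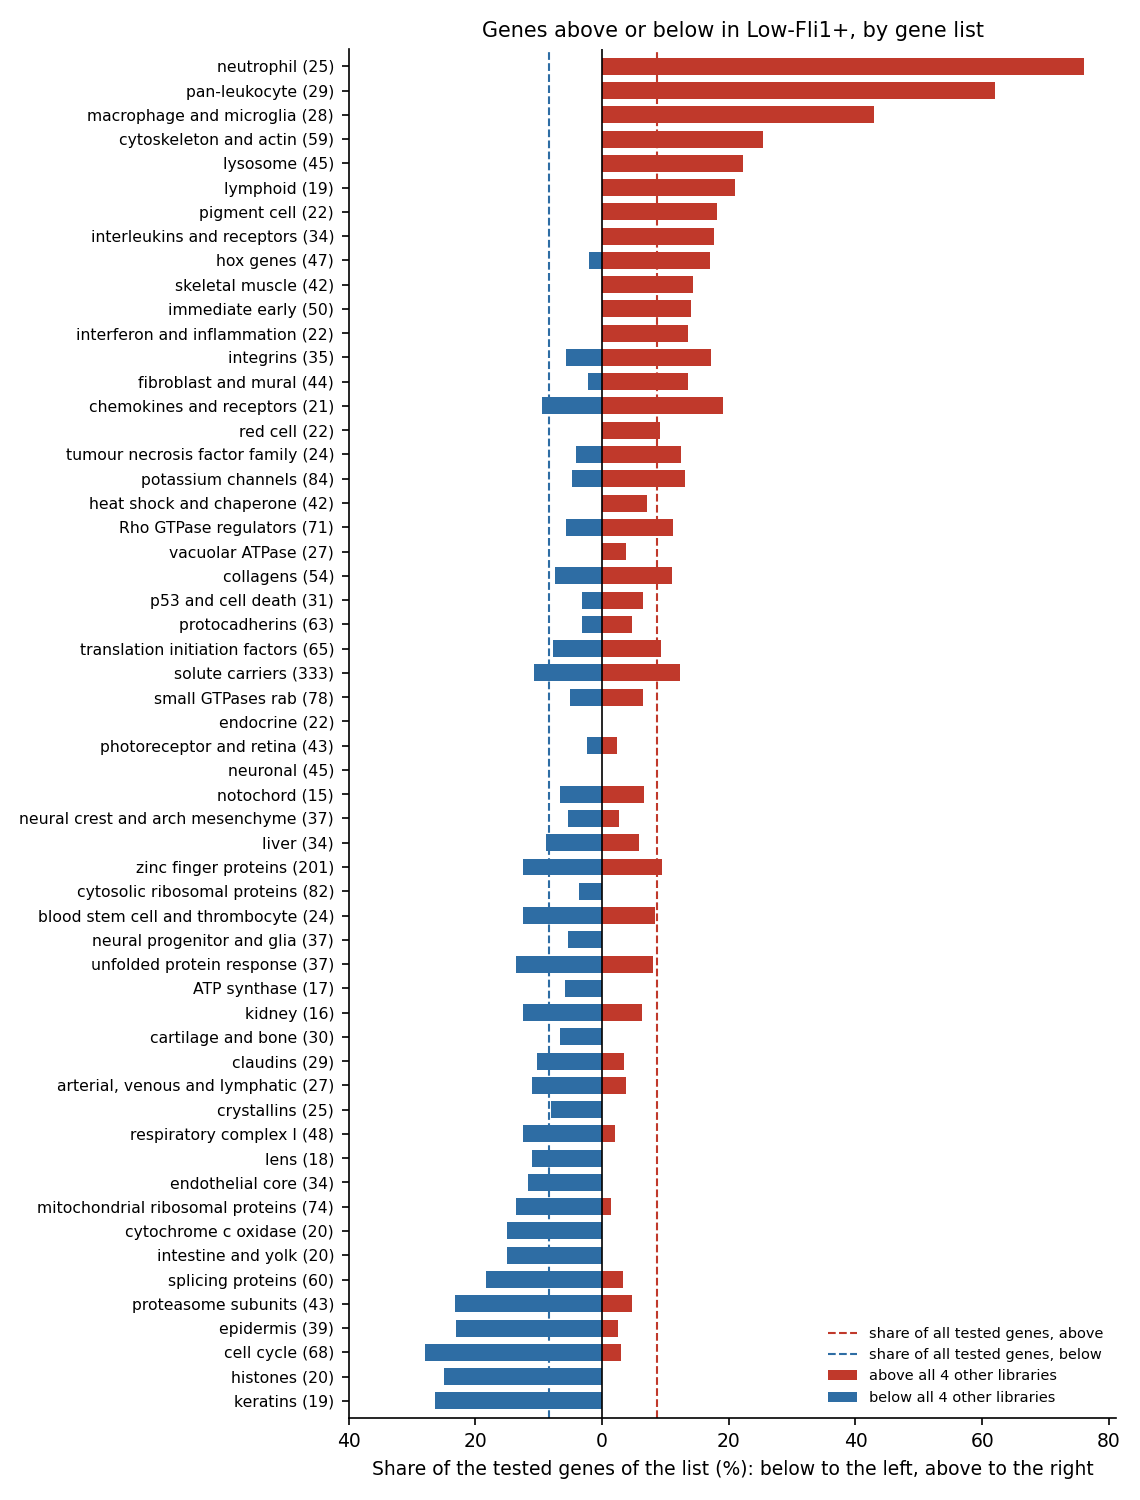
Share of the tested genes of a list or family that lay above (red, to the right) or below (blue, to the left) all 4 other libraries in Low-Fli1+, with the number tested in brackets. Lists with fewer than 15 tested genes, such as heart muscle and germ cell, are not drawn. Dashed lines mark 8.60% and 8.41%, the shares of all tested genes; the neutrophil, pan-leukocyte and macrophage lists reach 76.0%, 62.1% and 42.9% above, and cell cycle genes 27.9% below.

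Pigment, muscle, matrix and hox genes held a few members each, to be read against the 8.60% of all tested genes above. Pigment cell genes numbered 4 of 22 above (18.2%) and 0 below, among them gch2, of pteridine synthesis, at 8.91 and 28.8 FPKM in the Low-Fli1+ pair, 0.134 and 2.11 in the Fli1- pair and 1.92 and 0 in the High-Fli1+ pair, aox5, used as a marker of yellow pigment cells, at 4.68 and 5.59 FPKM in Low-Fli1+ and at most 0.313 FPKM elsewhere, and ltk, the receptor kinase of iridophores, at 12.8 and 14.4 FPKM. Skeletal muscle genes numbered 6 of 42 above (14.3%) and 0 below, with myom1b at 11.3 and 7.12 FPKM in Low-Fli1+. The short heart muscle list had 3 of 11 genes above (27.3%), a count kept under both scalings. It had 1 below, or 2 under median-ratio scaling. Its summed level, at 67.4 and 97.2 FPKM in Low-Fli1+, overlapped that in High-Fli1+, at 92.9 and 85.8 FPKM. Of 47 hox genes 8 were above (17.0%) and 1 below, among them hoxb13a at 13.3 and 22.0 FPKM in the Low-Fli1+ pair, 1.33 and 1.62 in the Fli1- pair and 0 and 0.563 in the High-Fli1+ pair and hoxa13a at 7.69 and 7.89 FPKM in the Low-Fli1+ pair, 0.734 and 0.931 in the Fli1- pair and 0.714 and 1.05 in the High-Fli1+ pair. Summed over the hox family, the level was 433 and 485 FPKM in Low-Fli1+, 420 and 520 in Fli1- and 205 and 183 in High-Fli1+. The hox total in Low-Fli1+ thus lay within the range of Fli1-. Fibroblast and mural genes numbered 6 of 44 above (13.6%) and 1 below, but 2 and 2 under median-ratio scaling. The collagen genes col1a1a and col1a1b came after hsp90ab1 as the genes above with the highest levels in Low-Fli1+, with col1a1a at 1168 and 1979 FPKM in the Low-Fli1+ pair, 139 and 252 in the Fli1- pair and 989 and 783 in the High-Fli1+ pair and col1a1b at 623 and 718 FPKM in the Low-Fli1+ pair, 70.19 and 145 in the Fli1- pair and 615 and 467 in the High-Fli1+ pair. Their distance was set against High-Fli1+, and both left the group under median-ratio scaling, as did the chaperone gene hsp90ab1, at 5970 and 5631 FPKM in the Low-Fli1+ pair, 4654 and 5164 in the Fli1- pair and 4463 and 5300 in the High-Fli1+ pair.

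Genes that were lowest in Low-Fli1+ were found in lists of general cell functions and in cell type lists such as epidermis. Of the 1617 genes below, 66 were in at least 1 of the 37 lists, so most are not described by them. Of 68 cell cycle genes, 19 (27.9%) were below, against 8.41% of all tested genes, and 2 above. The median difference of the list from the other libraries was -0.32 on the log2(FPKM + 1) scale, and the count below was 19 after quantile normalization and 21 after median-ratio scaling. The gaps were small, and 2 of the 19 had a gap of at least 1.5-fold. At that gap 3.45% of all tested genes were below, so the list then showed no excess. A gap larger than the difference between the Low-Fli1+ libraries was found in 5 of the 19. Without Low-Fli1+ replicate 2 the count was 40, but the number below then rose by a larger factor over all tested genes.

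Replication genes below included tyms, which makes thymidylate, at 12.3 and 10.6 FPKM in the Low-Fli1+ pair, 17.3 and 22.3 in the Fli1- pair and 36.4 and 39.2 in the High-Fli1+ pair. The replication clamp gene pcna stood at 42.9 and 112 FPKM in the Low-Fli1+ pair, 116 and 132 in the Fli1- pair and 119 and 167 in the High-Fli1+ pair, so that Low-Fli1+ replicate 2 was close to Fli1-. The ribonucleotide reductase subunits rrm1, at 41.4 and 51.0 FPKM in Low-Fli1+, and rrm2, at 13.8 and 10.7 FPKM, were below as well. Mitotic genes below included the kinase gene cdk1 at 7.34 and 15.4 FPKM in the Low-Fli1+ pair, 21.2 and 33.4 in the Fli1- pair and 17.8 and 29.5 in the High-Fli1+ pair and the checkpoint gene bub3 at 5.02 and 10.8 FPKM in the Low-Fli1+ pair, 17.9 and 19 in the Fli1- pair and 14.6 and 11.4 in the High-Fli1+ pair, together with cdc20, cdca8, nusap1, prc1a and kif20a. The replication licensing genes mcm2 to mcm7 were not members, nor were mki67, top2a and aurka. Cyclin D1, ccnd1, went the other way, at 87.9 and 121 FPKM in the Low-Fli1+ pair, 55.4 and 48.3 in the Fli1- pair and 74.1 and 65.8 in the High-Fli1+ pair, but not under median-ratio scaling. The other gene of the list above was gins2, at 9.03 and 11.4 FPKM in the Low-Fli1+ pair. It stood at 1.83 and 7.33 in the Fli1- pair and 3.36 and 0 in the High-Fli1+ pair, and stayed above under both scalings.

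RNA processing, protein turnover and mitochondrial families also had more genes below than above. Proteasome subunits numbered 10 of 43 below (23.3%) and 2 above, and splicing proteins 11 of 60 (18.3%) and 2. Mitochondrial ribosomal proteins numbered 10 of 74 below (13.5%) and 1 above, respiratory complex I 6 of 48 (12.5%) and 1, and cytochrome c oxidase 3 of 20 and 0, closer to the 8.41% of all tested genes. Under both scalings the number below in each of these families was the same or larger. Over all tested genes the share below was also larger, at 9.67% after quantile normalization and 11.2% after median-ratio scaling. The median difference from High-Fli1+ on the log2(FPKM + 1) scale was -0.19 for proteasome, -0.26 for complex I and -0.57 for cytochrome c oxidase genes. It was 0.095 for splicing and 0.098 for mitochondrial ribosomal proteins, so these families as a whole were not lowest in Low-Fli1+. The proteasome gene psmd8 stood at 29.8 and 25.3 FPKM in the Low-Fli1+ pair, 69.1 and 55.3 in the Fli1- pair and 52.5 and 43.7 in the High-Fli1+ pair, and psmc6 at 49.2 and 23.8 FPKM in the Low-Fli1+ pair, 75.4 and 79.9 in the Fli1- pair and 62.3 and 69.8 in the High-Fli1+ pair. The splicing factor gene srsf1a stood at 72.2 and 85.2 FPKM in the Low-Fli1+ pair, 135 and 132 in the Fli1- pair and 107 and 126 in the High-Fli1+ pair. In these 3 genes all libraries were well above 0 and the nearest libraries lay less than 1.5-fold apart. The gap of psmd8 was the largest of the proteasome genes below. A gap of at least 1.5-fold was met below by 3.45% of all tested genes, so the proteasome list then showed no excess. Histone genes numbered 5 of 20 below, with hist2h3c at 50.7 and 195 FPKM in the Low-Fli1+ pair, 216 and 276 in the Fli1- pair and 235 and 329 in the High-Fli1+ pair; copies of histone genes are near-identical and mostly lack poly-A tails, so their values are uncertain. Cytosolic ribosomal proteins were seldom members, with 3 of 82 below and 0 above, though 5 were above and 4 below under quantile normalization.

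The 20 named genes with the largest gaps below were all listed at 0 in at least 1 Low-Fli1+ library, 15 of them in both. All 20 stayed below under both scalings, but scaling leaves a 0 at or near the bottom of its library. That outcome was thus largely fixed in advance and is no support for their absence. The Low-Fli1+ libraries listed 4477 and 3141 tested genes at 0, and a gene at 0 may be undetected or a failed estimate. The spliceosome core gene snrpg was listed at 0 in both Low-Fli1+ libraries and stood at 21.6 and 25.5 FPKM in the Fli1- pair and 20.4 and 49.8 in the High-Fli1+ pair. So was lsm7, of the ring that binds U6 RNA, at 14.3 and 20.6 FPKM in the Fli1- pair and 14.1 and 13.2 in the High-Fli1+ pair, while lsm6 stood at 0 and 0.236 FPKM in Low-Fli1+ and at 21.8 FPKM or more elsewhere. In these 3 genes each of the other 4 libraries stood at 13.2 FPKM or more. Also listed at 0 in both Low-Fli1+ libraries were uqcrb of respiratory complex III, at 22.8 and 18.2 FPKM in the Fli1- pair and 11.9 and 25.3 in the High-Fli1+ pair, and nup35 of the nuclear pore, at 10.8 and 14.1 and at 13.5 and 10.23 FPKM in the same pairs. The gene emc4, of a membrane complex of the endoplasmic reticulum, was uneven within the other populations too, at 44.9 and 7.61 FPKM in the Fli1- pair and 8.13 and 66.9 in the High-Fli1+ pair. The homeobox gene dlx1a, a factor of arch mesenchyme and forebrain, was listed at 0 in Low-Fli1+ and stood at 11.2 and 9.88 FPKM in the Fli1- pair and 30.1 and 26.3 in the High-Fli1+ pair. The endodermal factor gene foxa3 stood at 0.0423 and 0 FPKM in Low-Fli1+, 6.69 and 8.24 in the Fli1- pair and 20.6 and 22 in the High-Fli1+ pair.

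**Figure D4:**
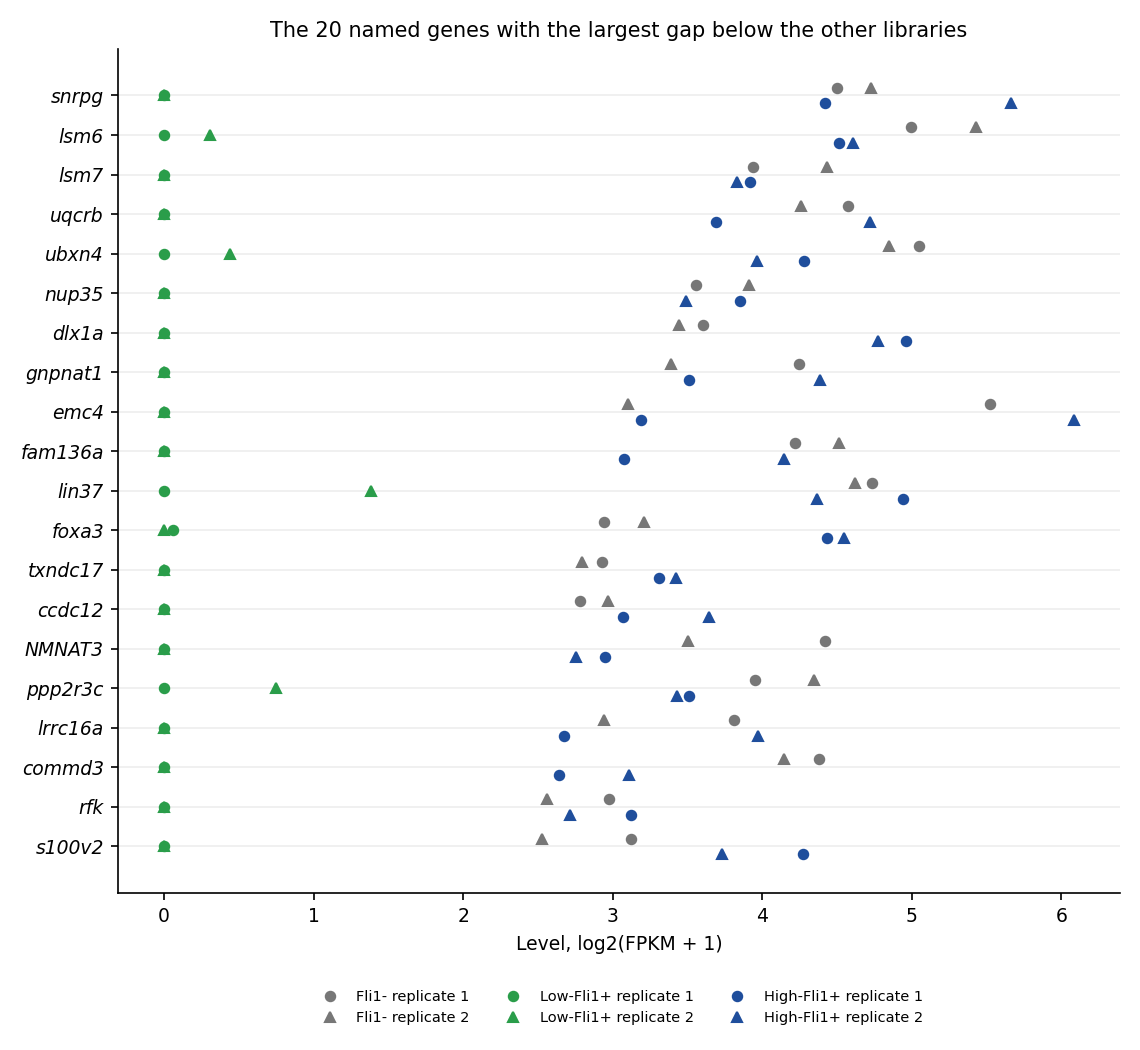
Level of the 20 named genes with the largest gap below the other libraries, as log2(FPKM + 1) on the x axis, with 1 symbol per library, coloured by population. All 20 are listed at 0 in at least 1 Low-Fli1+ library and 15 in both, while the other 4 libraries lie to the right. The order of Fli1- and High-Fli1+ differs between genes. High-Fli1+ is higher in some, such as dlx1a, and lower in others, such as commd3, and the pairs overlap in others, such as uqcrb.

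The genes below also had shorter genomic spans. Matched by name to the RefSeq annotation of assembly GRCz12tu, which may differ from the annotation behind the FPKM, 83.0% of genes below and 88.4% of genes above had a genomic span, with medians of 13136 bp below and 24597 bp above, against 19669.5 bp for all tested genes. The share below in Low-Fli1+ was 10.8% for genes spanning under 5 kb and 4.59% for those over 80 kb. In Fli1- and High-Fli1+ the share below both others went the opposite way, from 7.87% to 17.4% and from 14% to 36.7%.

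Epidermis genes numbered 9 of 39 below (23.1%) and 1 above, and keratins 5 of 19 below (26.3%) and 0 above, against 8.41% of all tested genes below. Claudins, of the tight junctions, were near that share, with 3 of 29 below (10.3%) and 1 above. Of the epidermis genes below, only krt91 and agr1 had a gap of at least 1.5-fold, at 3.14-fold and 1.60-fold. The next largest gap, of lgals3b, was 1.38-fold. At a gap of at least 1.5-fold 3.45% of all tested genes were below. The mean of agr1 over the 6 libraries was 0.958 FPKM, near the floor. Keratin krt91 stood at 3.27 and 0 FPKM in the Low-Fli1+ pair, 65.5 and 174 in the Fli1- pair and 14.0 and 12.4 in the High-Fli1+ pair, and krt5 at 16.7 and 0.822 FPKM in the Low-Fli1+ pair, 74.1 and 173 in the Fli1- pair and 75.0 and 18.2 in the High-Fli1+ pair. In both, the Low-Fli1+ libraries differed from each other several-fold, and keratin copies are similar enough that reads may be split between them. Summed over the keratin family, the level was 732 and 789 FPKM in Low-Fli1+, 705 and 1166 in Fli1- and 1904 and 1784 in High-Fli1+. The family total in Low-Fli1+ thus lay within the range of Fli1-. The claudin gene cldn7b stood at 0.0623 and 0 FPKM in the Low-Fli1+ pair, 26.4 and 36.8 in the Fli1- pair and 2.01 and 0.0640 in the High-Fli1+ pair, with the gap to High-Fli1+ replicate 2 close to 0. The mucous cell gene agr2 was listed at 0 in both Low-Fli1+ libraries and stood at 12.3 and 22.1 FPKM in the Fli1- pair and 5.15 and 3.29 in the High-Fli1+ pair.

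Of 34 endothelial core genes 0 lay above, 4 below (11.8%, near the 8.41% of all tested genes) and 8 between the other populations. The 4 were ptprb, vsg1, esama and the guidance receptor gene robo4. The phosphatase receptor gene ptprb was listed at 0 in both Low-Fli1+ libraries, at 0.680 and 0.0506 FPKM in the Fli1- pair and 11.2 and 13.8 in the High-Fli1+ pair. The gene vsg1 (plvapb), a component of endothelial diaphragms, stood at 0 and 0.860 FPKM in the Low-Fli1+ pair, 1.66 and 1.67 in the Fli1- pair and 21.1 and 18.6 in the High-Fli1+ pair. Of arterial, venous and lymphatic genes 3 of 27 were below, the scavenger receptor genes stab2 and mrc1a and the endocytic adaptor gene dab2, and the Notch ligand gene dlc was just above, at 53.2 and 71.2 FPKM in the Low-Fli1+ pair, 36.8 and 52.0 in the Fli1- pair and 10.9 and 22.8 in the High-Fli1+ pair, but not under median-ratio scaling. In ptprb, vsg1, stab2 and mrc1a the High-Fli1+ libraries were far above both other populations, and Low-Fli1+ lay only just under Fli1-. Under quantile normalization vsg1, esama and stab2 were no longer below. Of 24 blood stem cell and thrombocyte genes 2 lay above and 3 below, near the shares of all tested genes. The integrin gene itgb3b was above, at 19.1 and 22.9 FPKM in the Low-Fli1+ pair, 0.0566 and 0.446 in the Fli1- pair and 10.5 and 8.995 in the High-Fli1+ pair, and meis1b was above but not under median-ratio scaling. The blood stem cell factor gene runx1 was listed at 0 in both Low-Fli1+ libraries, at 2.72 and 5.37 FPKM in the Fli1- pair and 10.3 and 3.56 in the High-Fli1+ pair, and the thrombocyte gene gp9 likewise, at 16.2 and 15.9 FPKM in the Fli1- pair and 2.59 and 1.18 in the High-Fli1+ pair.

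In 4 cell type lists, chosen after their values were seen, many genes lay between the 2 other populations. Over all tested genes, 12.1% had both Low-Fli1+ libraries between Fli1- and High-Fli1+ without overlap. The share was 35 of 45 in the neuronal list, 17 of 22 in the red cell list, 23 of 30 in the cartilage and bone list and 22 of 44 in the fibroblast and mural list. Neuronal genes were above in 0 and below in 0, and the 2 red cell genes above were the haem synthesis genes urod, at 33.8 and 25.4 FPKM in the Low-Fli1+ pair, 15.6 and 10.1 in the Fli1- pair and 14.1 and 11.0 in the High-Fli1+ pair, and fech, at 101 and 59 FPKM in the Low-Fli1+ pair, 52.4 and 29.0 in the Fli1- pair and 14.9 and 22.2 in the High-Fli1+ pair.

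**Figure D5:**
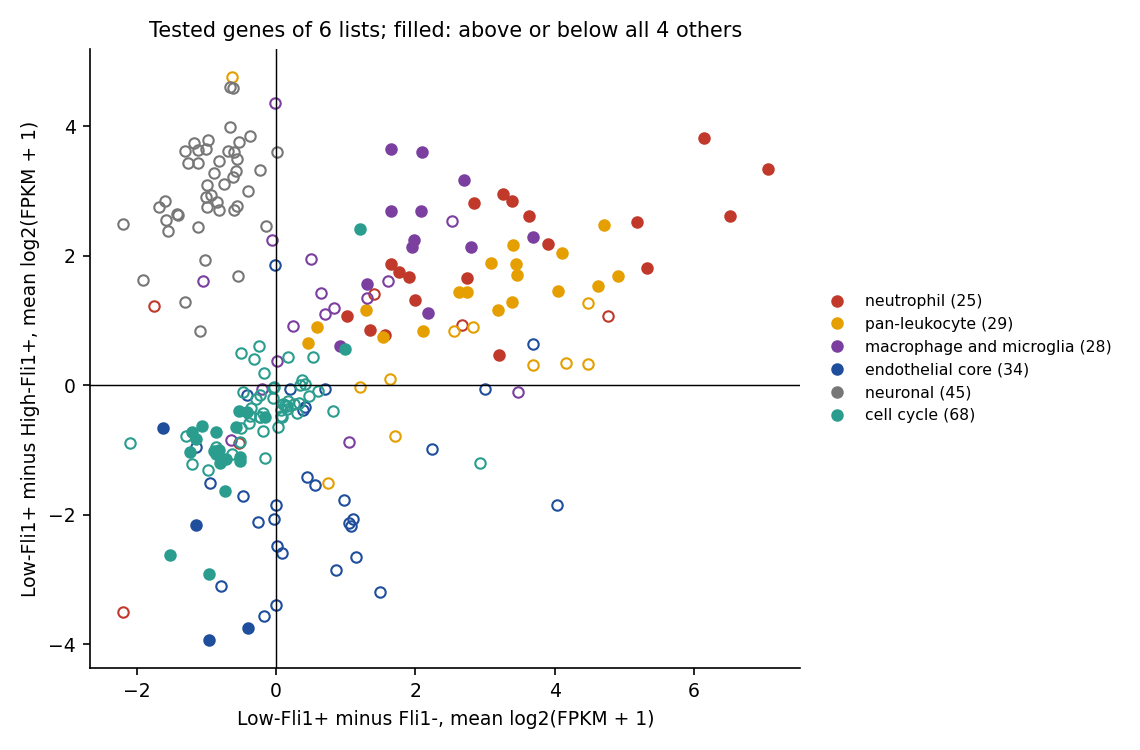
Each point is a tested gene of 1 of 6 lists, placed by the difference of mean log2(FPKM + 1) between Low-Fli1+ and Fli1- (x axis) and between Low-Fli1+ and High-Fli1+ (y axis); filled points lay above or below all 4 other libraries. Most leukocyte genes lie in the upper right, where Low-Fli1+ is highest (49 of 82 filled), and neuronal genes lie in the upper left, between the populations (35 of 45).

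High-Fli1+ was compared with Fli1- over all tested genes with limma, with Benjamini-Hochberg adjustment. Of all tested genes 1113 (5.79%) were called higher and 2203 (11.5%) lower in High-Fli1+. Among genes above in Low-Fli1+, 76 (4.59%) were higher and 68 (4.11%) lower, and among genes below, 22 (1.36%) were higher and 32 (1.98%) lower. How far the rule itself shapes these shares was not tested. The spread in the fit also draws on the Low-Fli1+ pair, by which the members were chosen. That pair lay within 2-fold on FPKM + 1 in 88.6% of genes above, 81.9% of genes below and 61.2% of all tested genes. Leaving out each library in turn gave 76 to 1574 higher and 125 to 3334 lower among all tested genes. The counts among genes above were 9 and 2 without Fli1- replicate 1, 15 and 2 without Fli1- replicate 2, 2 and 13 without High-Fli1+ replicate 1, and 2 and 3 without High-Fli1+ replicate 2. Among genes below they were 2 and 16, 2 and 25, 3 and 0, and 1 and 0 without the same libraries, and 41 and 55, and 42 and 55 without Low-Fli1+ replicates 1 and 2.

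Leukocyte genes were among those called higher in High-Fli1+ than in Fli1-. The pan-leukocyte list had 11 of 29 genes higher (37.9%) and 1 lower (3.45%), against 5.79% and 11.5% of all tested genes. Among its 18 genes above, 6 were higher and 0 lower, against 4.59% and 4.11% of all genes above. The neutrophil list had 7 of 25 higher (28.0%) and 1 lower (4.0%), of which 6 and 0 were among its 19 genes above. The macrophage list had 1 of 28 higher (3.57%) and 2 lower (7.14%), both under the shares of all tested genes. Among its 12 genes above, 0 were called in either direction. Between High-Fli1+ and Fli1-, mpx had a log2 fold change of 3.72 ± 0.30 (SE, limma adjusted p = 0.00298) and coro1a of 3.22 ± 0.24 (SE, limma adjusted p = 0.00283), on the log2(FPKM + 1) scale. Both kept the call without each library in turn, with adjusted p up to 0.0495. Of 263 named members with this test, 34 were called, and 32 of them lost the call without at least 1 library.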

How the data were processed

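The authors deposited 1 table of FPKM per gene, fragments scaled to transcript length and to mapped fragments, per the file headers, for the 6 libraries. The aligner, genome build and annotation are not given in the sources used here. FPKM keep no record of the number of fragments, so the depth and counting error of each value are unknown, and a gene listed at 0 may be undetected or a failed estimate. Columns were matched to libraries by the population and replicate number in their names.

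Of 29126 named entries, 19237 with a mean of at least 0.5 FPKM were tested; 18 entries whose names had turned into dates were left out. Differences were taken on log2(FPKM + 1), with a pseudocount of 1, which understates the change of low genes. High-Fli1+ was compared with Fli1- with limma 3.58.1 in R 4.3.3, on all 6 libraries with a mean-variance trend, and p-values were adjusted over all tested genes by the Benjamini-Hochberg method at a threshold of 0.05. With 3 residual degrees of freedom, few genes of moderate change can be called. The fit was tested on simulated data.

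Members and gene lists were chosen with earlier results of these data known. Named were the 20 genes in each direction with the largest gap (mean of at least 5 FPKM on the higher side, no provisional name), the 4 largest gaps per list and direction, the 10 genes above with the highest level in Low-Fli1+, the genes nearest a gap of 0, and fli1a, fli1b, lmo2 and PRDM16. Other genes named, non-members included, were chosen after their values were seen. The alternatives were other pseudocounts, filters, scalings, minimum gaps, fits and leaving out each library; those for single lists were chosen after seeing the data. The values of 1 gene are not reported here.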

Additional observations from a re-analysis of the deposited data

How the results depend on the processing

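Of 1655 genes above and 1617 below, 447 and 664 had a gap of at least 1.5-fold, and 791 and 990 a gap larger than the difference between the Low-Fli1+ libraries. Leaving out each library gave 1841 to 4768 above and 1824 to 4366 below. Quantile normalization gave 1381 and 1861, and median-ratio scaling 1147 and 2162. The cause of these shifts was not tested. For High-Fli1+ against Fli1-, counts are given as higher and lower. Genes below had 9 and 9 with a pseudocount of 0.1, 59 and 14 after quantile normalization, 42 higher after median-ratio scaling, 39 higher with no variance trend, 45 and 59 with only the 2 populations compared, and 60 and 67 with array weights. Genes above had 50 higher with a pseudocount of 5, 125 higher after quantile normalization, 109 lower with only the 2 populations, and 125 and 152 with array weights. All tested genes had 3394 lower with only the 2 populations, and 1777 and 3882 with array weights. Leaving out each library gave 76 to 1574 and 125 to 3334 of all tested genes, 2 to 95 and 2 to 99 of genes above, and 1 to 42 and 0 to 55 of genes below. Which of higher and lower calls was the more frequent turned under most of these alternatives among genes above, and among genes below after both scalings and without either High-Fli1+ library. Depth is unknown, which limits all values.

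The replicate numbers are not known to pair the libraries. Deviations of same-numbered libraries correlated at 0.096, 0.081 and 0.121 across genes. With the replicate number as a block, 1017 genes were called higher and 1975 lower, among them 58 and 64 of genes above and 11 and 17 of genes below.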
